A study of Homo sapiens with 24 samples.

Results

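The genes described here are those whose response to transfection with the control duplex siGL2 differed between wild-type HCT116 cells, a human colon cancer line, and TNRC6AB-/- cells, the same line without functional TNRC6A and TNRC6B. RNA was sequenced in 12 libraries that serve this question, 3 each of wild type, wild type siGL2, TNRC6AB-/- and TNRC6AB-/- siGL2, out of 24 libraries in all. The measure, called the interaction, is the log2 change with siGL2 in TNRC6AB-/- cells minus the log2 change with siGL2 in wild-type cells. A gene with a positive interaction is called higher and one with a negative interaction lower, whichever way it moved in either background. Of 24153 genes with enough reads to be tested, 461 were called higher (1.91%) and 1314 lower (5.44%), at an adjusted p below 0.05 (edgeR quasi-likelihood test, Benjamini-Hochberg adjustment over all genes) and a log2 interaction beyond 0.6. All adjusted p-values below are from this fit, and levels are CPM, the reads of a gene after scaling all libraries to the same total. They compare libraries for 1 gene and not genes with each other. The cells were at passages 12 to 18. The knockout line carries a frameshift in TNRC6A and a deletion in TNRC6B and is a single line. siGL2 was brought in with a lipid reagent, the knockout cells were plated more densely for it, and no group had lipid alone. The duplex, the lipid, the plating and the harvest therefore cannot be told apart here. The p-values rest on a spread between libraries that is pooled over all 24, and the groups compared here differ in spread. Nothing in the labels ties the 3 libraries of a group to separate cultures, so that spread may be technical.

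TNRC6 proteins, also known as GW182, are scaffolds. They hold an Argonaute protein loaded with a microRNA or a small interfering RNA at one end and recruit deadenylases at the other, which shortens the poly(A) tail of the target and represses it. Cleavage of a fully matched target by AGO2 does not need them. A double-stranded siRNA can repress genes that match only the seed, bases 2 to 8 of the guide strand, and double-stranded RNA can also be seen by cytosolic sensors that turn on interferon-stimulated genes.

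siGL2 was designed against firefly luciferase, a gene that these cells do not have. Its strands are shown with the seed of each in capitals, because the seed is the part of a guide strand that finds partly matched targets.
siGL2 antisense strand: uCGAAGUAuuccgcguacg
siGL2 sense strand: cGUACGCGgaauacuucga

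The 12 libraries held from 28822976 counted reads (TNRC6AB-/- 1) to 42689320 (wild type siGL2 1). The groups differed in more than their labels. The share of reads on transcripts annotated as retained introns was 4.53 to 5.17% in wild type, 3.52 to 5.15% in TNRC6AB-/-, 3.28 to 4.33% in wild type siGL2 and 3.52 to 4.50% in TNRC6AB-/- siGL2. The mean fragment was 181.1 to 190.5 bases long without transfection and 195.7 to 211.7 bases with siGL2. Libraries of the untransfected groups also spread more: the biological coefficient of variation was 0.216 in wild type and 0.196 in TNRC6AB-/-, against 0.101 and 0.0576 with siGL2. Where a count below depends on these differences it is also given without the 4 libraries that lay farthest from their group on the first 2 principal components (wild type 2, wild type siGL2 3, TNRC6AB-/- 1 and TNRC6AB-/- siGL2 3), and with the retained-intron share of each library as a covariate. The 10 markers of the HCT116 epithelium were all tested, and 1 was higher and 1 lower (EPCAM and ELF3), beside 2.22% and 6.5% of all genes. The call on ELF3 was lost in 9 of the 12 fits that left out 1 library. KRT8, a simple epithelial keratin, had 642, 601 and 689 CPM in wild type and 983, 944 and 1074 CPM in TNRC6AB-/- libraries, while VIL1, GPA33 and LGALS4, markers of mature gut cells, had means below 1 CPM in both. Markers of blood, vessels, fibroblasts and other cells foreign to the line gave 15 tested genes, 2 of them named RGS5, with 0 higher and 2 lower (all genes, 2.22% and 6.5%). The 2 were COL3A1, described below, and 1 of the genes named RGS5, a regulator of G protein signalling found in pericytes. This RGS5 had an interaction of -2.07 (SE 0.24, adjusted p = 1.86e-05). The other gene of that name did not pass. In such bulk samples fewer cells of a type and less RNA per cell cannot be told apart.

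Many genes changed with siGL2 in each background. In wild-type cells 1532 genes rose (6.34%) and 1562 fell (6.47%), and in TNRC6AB-/- cells 967 rose (4%) and 1669 fell (6.91%). These responses share no library. Of the genes that rose in wild type 278 also rose in TNRC6AB-/- cells, which is 18.2% of the first list and 28.7% of the second, and of those that fell 281 fell in both, 18.0% and 16.8%. A rise in wild type with a fall in TNRC6AB-/- cells was found for 79 genes and the converse for 13. The 79 were 5.16% of the genes that rose in wild type, below the 6.91% of all genes that fell in TNRC6AB-/- cells. The 13 were 0.83% of the genes that fell in wild type, below the 4% of all genes that rose in TNRC6AB-/- cells. The median response over all genes was -0.012 in the wild-type and -0.064 in the TNRC6AB-/- background, and the median interaction was -0.038. The count of genes called lower was 1492 without the 4 libraries and 1174 with the covariate, and the count called higher was 459 and 906. The share of the calls that are higher was 26.0%. It was 43.6% with the covariate, 40.1% in a fit of the 12 libraries alone (349 higher and 521 lower), 38.2% with no filter on low counts and 37.2% without retained-intron transcripts. Single libraries moved the counts by more than 1.5 times. Genes called higher numbered 715 without wild type 3, 732 without TNRC6AB-/- 1 and 296 without wild type siGL2 2. Genes called lower numbered 586 without TNRC6AB-/- 2, 838 without TNRC6AB-/- siGL2 3 and 871 without wild type siGL2 2. In wild-type cells the count that rose was 575 without wild type 2, 2497 without wild type 3, 820, 1009 and 2341 without wild type siGL2 1, 2 and 3, and the count that fell was 452 without wild type 2 and 598 and 662 without wild type siGL2 1 and 2.

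**Figure D1:**
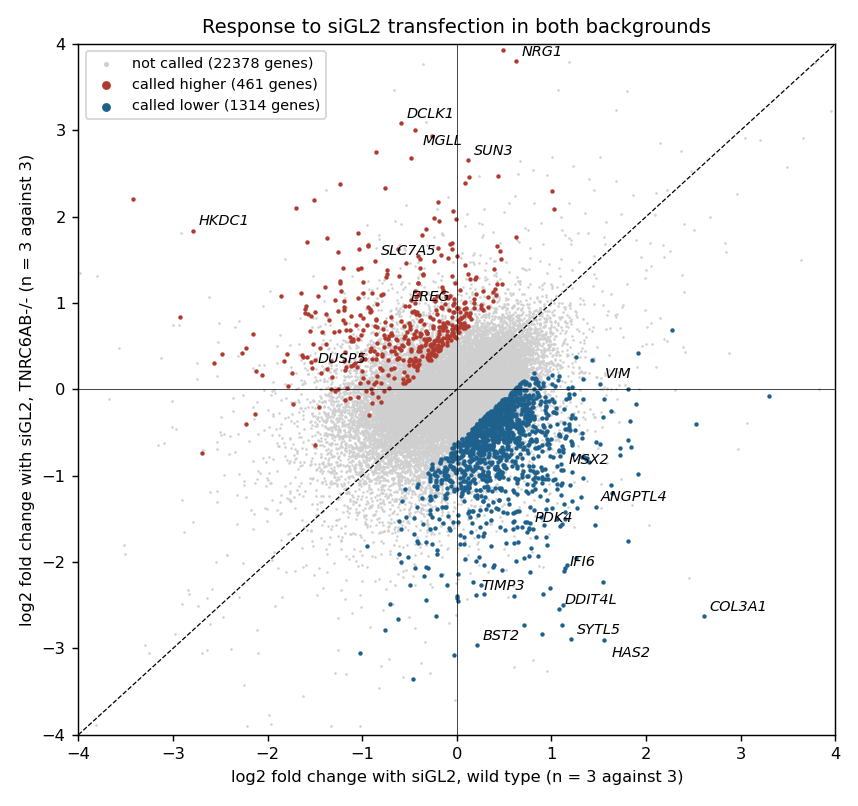
Log2 fold change with siGL2 in wild-type cells (horizontal axis) against that in TNRC6AB-/- cells (vertical axis) for the 24153 genes tested, each fold change from 3 libraries against 3, with the 461 genes called higher in the interaction in red and the 1314 called lower in blue. The dashed line marks equal responses, and 78 genes lie outside the axes. Genes called lower sit to the right of the line by definition. Of these 1314 genes 640 rose in wild type and 837 fell in TNRC6AB-/- cells at an adjusted p below 0.05 (edgeR).

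Interferon-stimulated genes, the antiviral set switched on by interferon, fell with siGL2 in TNRC6AB-/- cells, and none passed the test for a fall in wild-type cells. Of the 42 members tested 23 were lower in the interaction and 0 higher at an adjusted p below 0.05, where over all genes 6.5% were lower and 2.22% higher. At an unadjusted p below 0.05 33 were lower and 0 higher, and DESeq2 gave 25 and 0. By the same test 27 fell and 0 rose in TNRC6AB-/- cells (all genes, 10.4% and 9.74%), and 5 rose and 0 fell in wild-type cells (all genes, 16.4% and 8.41%). The median of the list was -0.87 in TNRC6AB-/- cells, 0.32 in wild-type cells and -1.18 in the interaction. The responses of 14 members did not overlap, in that each pairing of a siGL2 with an untransfected library gave a lower value in TNRC6AB-/- than in wild-type cells; 7.13% of all genes did this, and 3.64% did the converse. The list began from unequal levels: the median difference between TNRC6AB-/- and wild-type cells was 2.01 without transfection and 0.67 with siGL2. Members that did not pass, named after their values were seen, included MX1, MX2, OAS2 and XAF1, antiviral effectors with interactions of -0.11, 0.20, 0.10 and 0.081.

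IFI6, an interferon-induced membrane protein that limits cell death and flavivirus replication, had the most negative interaction of the list. It (ENSG00000126709.14, GRCh38 chromosome 1, 27666061 to 27672218, minus strand) stood at 6.50, 2.96 and 6.25 CPM in the wild-type libraries and 12.6, 12.1 and 9.81 CPM with siGL2. In TNRC6AB-/- cells it stood at 33.2, 172 and 195 CPM without and 33.5, 29.9 and 29.7 CPM with siGL2. Wild-type levels with siGL2 were all above those without, and in TNRC6AB-/- cells libraries 2 and 3 were far above all siGL2 libraries while library 1 lay among them. The log2 response was 1.13 (SE 0.39, adjusted p = 0.0369) in the wild-type and -2.10 (SE 0.37, adjusted p = 0.000325) in the TNRC6AB-/- background, and the interaction was -3.24 (SE 0.53, adjusted p = 0.000556). BST2, or tetherin, which holds budding virions at the cell surface, was near 1 CPM in wild-type cells, at 0.691, 1.03 and 0.725 CPM without and 0.825, 0.926 and 1.08 CPM with siGL2. It stood at 3.31, 13.9 and 17.7 CPM in TNRC6AB-/- cells and at 1.74, 1.32 and 1.40 CPM with siGL2, so that the transfected libraries were below all untransfected ones, with library 1 the lowest of the latter. Its interaction was -3.18 (SE 0.70, adjusted p = 0.0066). IFI35, an interferon-induced leucine zipper protein, fell in TNRC6AB-/- cells from 10.8, 16.9 and 20.4 CPM to 6.04, 5.94 and 4.45 CPM and was at 4.93, 4.27 and 3.56 CPM and 5.97, 5.36 and 4.54 CPM in wild-type cells. The interaction was -1.86 (SE 0.28, adjusted p = 0.000287).

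Transcription factors of the pathway were among these genes. IRF7, the factor that drives the later wave of interferon genes, stood at 8.07, 14.8 and 19.8 CPM in TNRC6AB-/- cells and at 6.79, 5.97 and 6.45 CPM with siGL2, against 2.51, 2.25 and 3.08 CPM and 3.60, 3.76 and 3.46 CPM in wild-type cells. Its interaction was -1.61 (SE 0.31, adjusted p = 0.0021). STAT2, which carries the interferon signal to the nucleus, changed less, with an interaction of -0.72 (SE 0.13, adjusted p = 0.00154), from 76.1, 97.8 and 105 CPM to 54.3, 52.2 and 55.2 CPM in TNRC6AB-/- cells and from 48.2, 50.8 and 45.2 CPM to 45.6, 45.7 and 46.6 CPM in wild type. The call on STAT2 was lost in the edgeR fit of the 12 libraries alone (adjusted p = 0.055). Of 23 RNA sensors and interferon signalling genes 5 were lower (21.7%, beside 6.5% of all genes) and 0 higher, with a median of -0.35. Among them were EIF2AK2, the kinase PKR that binds double-stranded RNA, at -0.88 (SE 0.22, adjusted p = 0.0155), and DHX58, the sensor LGP2, at -1.50 (SE 0.43, adjusted p = 0.0322). EIF2AK2 had 134, 117 and 144 CPM in wild type without and 188, 186 and 155 CPM with siGL2, levels without overlap whose difference had an adjusted p of 0.053, and it fell in TNRC6AB-/- cells from 207, 368 and 325 CPM to 231, 217 and 206 CPM. The 5 calls became 0 without TNRC6AB-/- 2 and in the fit of the 12 libraries alone, 8 without TNRC6AB-/- 1, and between 1 and 3 when any of wild type 1 and 2, TNRC6AB-/- 3, TNRC6AB-/- siGL2 2 and 3 or wild type siGL2 1 and 2 was left out. The call on EIF2AK2 was lost in 1 of the 12 fits that left out 1 library and that on DHX58 in 6.

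TNRC6AB-/- library 1 differed from its group in these genes. The median of the list, as a log2 difference from the mean of the wild-type libraries, was 1.03, 2.06 and 2.16 in TNRC6AB-/- libraries 1, 2 and 3 and 0.96, 1.02 and 0.91 with siGL2. In library 1, 18 of 42 members were above all 3 siGL2 libraries, in library 2 39 and in library 3 40. How many of all genes did so in each library was not counted. Library 1 had the highest retained-intron share of its group. The count of members lower was 32 without library 1, 12 without library 2, 14 without library 3, 31 without the 4 libraries, 22 with the covariate and 9 in a fit of the 12 libraries alone, and 0 members were higher in any of these.

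The promoters of these genes carry a known mark of the pathway, the interferon-stimulated response element. Its core was searched on both strands as GAAA, any 2 bases, GAAA in the RefSeq promoter of each gene (GRCh38.p14, a window around the start site). It was found in 996 of 27305 promoters (3.65%) and in 21 of the 33 members with a promoter in the table (63.6%). Of the 20 that were lower and had a promoter there 12 held it, no larger a share than in the whole list. Members with interactions near 0 also held it, such as MX1 at -0.11 and ISG20 at -0.029. IFI6 and BST2 hold more than 1 copy each, some overlapping. The windows below are printed 5′ to 3′ on the strand of the gene, with 1 match in capitals, because these members had the most negative interactions of the list. A match describes the letters and is not evidence of binding.
IFI6 promoter, chr1:27672314-27672373, minus strand: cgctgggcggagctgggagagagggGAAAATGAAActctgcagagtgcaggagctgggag
BST2 promoter, chr19:17405726-17405785, minus strand: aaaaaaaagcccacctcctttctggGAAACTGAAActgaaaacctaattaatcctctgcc

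Of the 10 protein-coding genes with the most negative interaction, among those that averaged at least 5 CPM in a group and had responses that did not overlap, 3 act in the extracellular matrix: COL3A1, HAS2 and TIMP3. The share of such genes among all genes within these limits was not counted. COL3A1, a chain of fibrillar collagen (ENSG00000168542.14, GRCh38 chromosome 2, 188974320 to 189012746, plus strand), stood at 14.5, 49.2 and 60.4 CPM in TNRC6AB-/- cells and at 7.05, 6.49 and 6.60 CPM with siGL2, whereas wild-type libraries held 0.0942, 0.0321 and 0.0302 CPM and 0.275, 0.365 and 0.368 CPM. It fell without overlap in TNRC6AB-/- cells, with library 1 the lowest untransfected one, and its rise in wild type was between levels close to 0. The interaction was -5.23 (SE 0.86, adjusted p = 0.000543). HAS2, a hyaluronan synthase, was at 24.9, 46.1 and 24.7 CPM and 3.91, 4.60 and 4.24 CPM in TNRC6AB-/- cells and at 0.188, 0.0321 and 0.242 CPM and 0.632, 0.365 and 0.397 CPM in wild type. Its interaction was -4.46 (SE 0.59, adjusted p = 6.19e-05). SPARC, a collagen-binding matrix protein, went from 24.9, 20.8 and 34.4 CPM to 7.13, 6.41 and 5.92 CPM in TNRC6AB-/- cells, and from 1.44, 1.25 and 2.39 CPM to 2.20, 2.02 and 1.98 CPM in wild type. This gave an interaction of -2.32 (SE 0.35, adjusted p = 0.000287). TIMP3, an inhibitor of matrix proteases that lies within SYN3 on the other strand, had its higher levels in wild type, where it rose from 2.54, 2.89 and 3.59 CPM to 5.83, 6.17 and 4.99 CPM, and it fell from 0.914, 0.509 and 0.422 CPM to 0.155, 0.124 and 0.0598 CPM in TNRC6AB-/- cells. The difference between these responses was -3.28 (SE 0.49, adjusted p = 0.000263). The response of HAS2 in wild type and that of TIMP3 in TNRC6AB-/- cells thus rest on few reads. Each met the limit of 5 CPM only in the other background.

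The lists these genes belong to were mixed. Among 27 mesenchymal genes 9 were lower and 1 higher (33.3% and 3.70%, beside 6.5% and 2.22% of all genes), with a median interaction of -0.12, and among 28 genes of collagen maturation and matrix 7 were lower and 4 higher, with a median of -0.25. VIM, the intermediate filament vimentin, rose in wild type from 4.55, 3.18 and 4.86 CPM to 13.4, 12.5 and 10.1 CPM and was at 46.6, 35.4 and 36.2 CPM and 43.4, 42.0 and 38.3 CPM in TNRC6AB-/- cells. An interaction of -1.44 (SE 0.25, adjusted p = 0.000863) was measured. ZEB1, the repressor of epithelial genes that is held down by the miR-200 family, rose from 7.91, 9.67 and 9.06 CPM to 15.6, 15.2 and 13.7 CPM in wild type and fell from 47.7, 46.1 and 29.1 CPM to 26.6, 25.5 and 23.8 CPM in TNRC6AB-/- cells. The interaction was -1.44 (SE 0.20, adjusted p = 0.000148). P3H1, which hydroxylates collagen prolines, was lower, at -0.90 (SE 0.13, adjusted p = 0.000241) and COL12A1, a fibril-associated collagen, at -0.89 (SE 0.21, adjusted p = 0.0118). The 4 matrix genes that were higher included LAMA3 and LAMB3, laminin chains of epithelial basement membranes, named here after their values were seen. LAMA3 had an interaction of 1.22 (SE 0.34, adjusted p = 0.0258) and LAMB3 of 1.92 (SE 0.47, adjusted p = 0.0124). LAMB3 stood at 17.3, 20.4 and 29.7 CPM in TNRC6AB-/- cells and 39.0, 36.0 and 33.0 CPM with siGL2, and at 40.2, 136 and 39.1 CPM and 30.7, 31.7 and 28.6 CPM in wild type. The highest of these was wild type 2. Both calls were lost without the 4 libraries and in the fit of the 12 libraries alone. In the fits that left out 1 library that on LAMA3 was lost in 7 of the 12 and that on LAMB3 in 0. TGFBI, a matrix protein induced by TGF-beta and the mesenchymal gene that was higher, also singled out after its value was seen, had an interaction of 2.33 (SE 0.49, adjusted p = 0.00478). The call on COL12A1 was lost without TNRC6AB-/- 2, without the 4 libraries and in the fit of 12 libraries. The median of the mesenchymal list was -0.36 without TNRC6AB-/- 3, -0.30 without TNRC6AB-/- siGL2 3, -0.20 without wild type siGL2 1 or 3 or the 4 libraries and -0.043 in the fit of 12 libraries. The count of its 9 members lower was 6 to 10 in the fits that left out 1 library, and the call on COL3A1 was lost with a spread per group in limma voom (adjusted p = 0.123).

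Wnt targets and stem cell genes included 8 lower and 1 higher of 19 tested (42.1% and 5.26%, beside 6.5% and 2.22% of all genes). The median was 0.46 in wild type, -0.32 in TNRC6AB-/- cells and -0.69 in the interaction. MSX2, a homeobox factor, had 5.31, 4.11 and 4.68 CPM in wild type without and 11.7, 10.6 and 8.53 CPM with siGL2, and 24.8, 33.5 and 39.8 CPM and 18.2, 18.2 and 15.1 CPM in TNRC6AB-/- cells, moving up in the first and down in the second without overlap. Its interaction was -2.06 (SE 0.22, adjusted p = 6.1e-06). TNFRSF19, a receptor of the tumour necrosis factor family found in stem cells, was lower, at -2.13 (SE 0.32, adjusted p = 0.00029), SP5, a Wnt-induced repressor, at -2.19 (SE 0.47, adjusted p = 0.00521) and DKK1, a secreted Wnt inhibitor, at -1.81 (SE 0.37, adjusted p = 0.00423). AXIN2 and NOTUM, feedback inhibitors of the pathway, were at -1.53 and -1.40, and the member that was higher was PROM1, a membrane protein of stem cells, at 1.26; these 3 were named after their values were seen. The calls on AXIN2 and PROM1 were lost in 5 and 10 of the 12 fits that left out 1 library. Those on SP5, AXIN2 and PROM1 were lost in the fit of the 12 libraries alone. The count of 8 lower was 5 without TNRC6AB-/- 2, TNRC6AB-/- siGL2 3 or wild type siGL2 2.

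**Figure D2:**
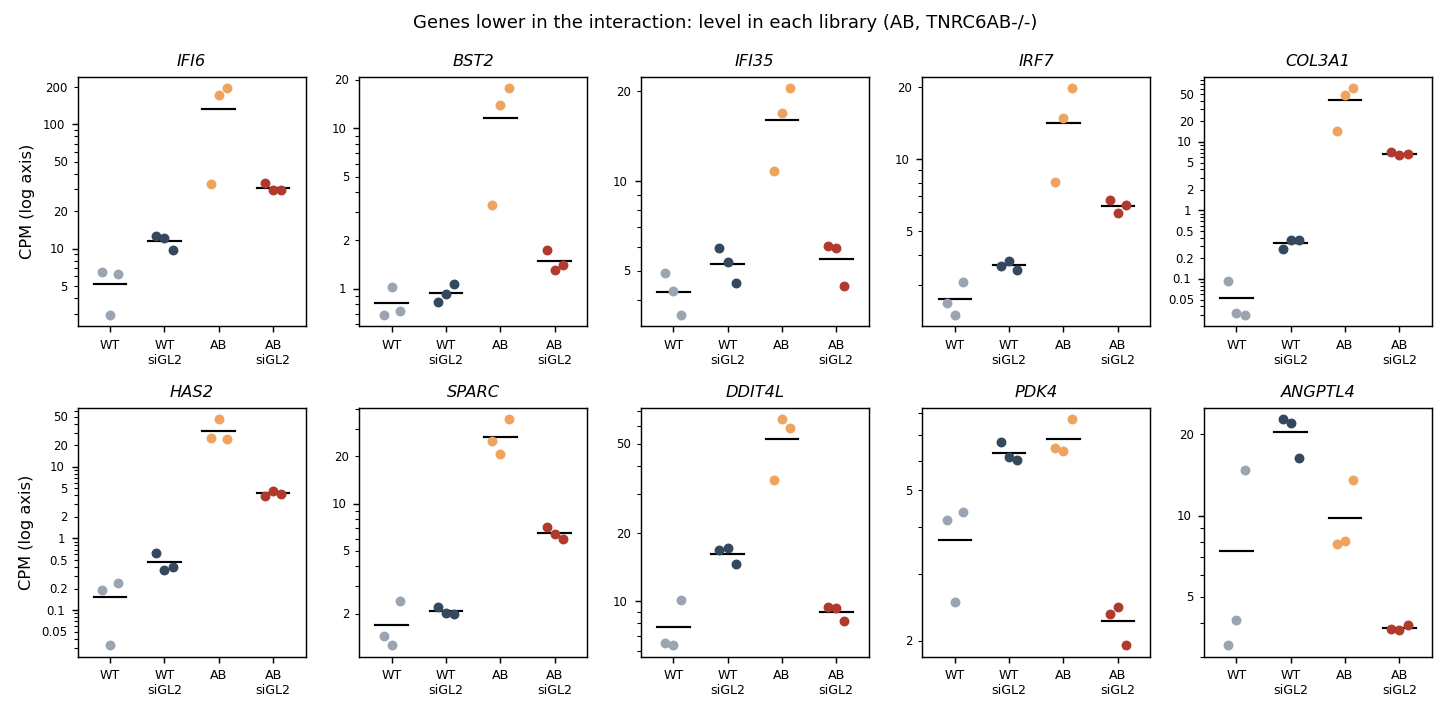
Level in CPM (logarithmic vertical axis, different for each gene) of 10 genes lower in the interaction in each of the 12 libraries, with bars at the means of 3; WT is wild type and AB TNRC6AB-/-. In TNRC6AB-/- cells the siGL2 libraries lie below most or all untransfected libraries for each gene, IFI6 library 1 excepted, whereas in wild-type cells they are level or above.

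Genes of lipid metabolism rose with siGL2 mainly in wild-type cells. Of 25 genes of cholesterol synthesis and uptake, the targets of SREBP2, 17 rose and 0 fell in wild type, with a median of 0.70, while 2 rose and 2 fell in TNRC6AB-/- cells, with a median of 0.084. Of all genes 16.4% rose and 8.41% fell in wild type, and 9.74% rose and 10.4% fell in TNRC6AB-/- cells. In the interaction 6 were lower (24%, beside 6.5% of all genes) and 0 higher, with a median of -0.54 and all 25 estimates negative. The median was -0.35 without wild type 2 and -0.34 without TNRC6AB-/- 2. IDI1, which isomerises isopentenyl diphosphate, rose in wild type from 35.4, 22.6 and 64.5 CPM to 105, 106 and 78.9 CPM and was at 54.8, 79.9 and 61.3 CPM and 69.7, 65.2 and 53.9 CPM in TNRC6AB-/- cells. This gave an interaction of -1.30 (SE 0.33, adjusted p = 0.0163). The sterol reductase TM7SF2 was lower, at -1.06 (SE 0.22, adjusted p = 0.00375) and the mevalonate decarboxylase MVD at -0.88 (SE 0.23, adjusted p = 0.0188). Wild-type libraries disagreed on this list. Its median per library was 0.091, -0.56 and 0.42 without and 0.89, 0.87 and 0.53 with siGL2, as log2 differences from the wild-type mean, and wild type 3 was the closest to the siGL2 libraries. The count of 6 lower was 16 without wild type 3, 2 without TNRC6AB-/- 2 or TNRC6AB-/- siGL2 3, 3 without wild type siGL2 1 or 2, 6 without the 4 libraries and 4 with the covariate and 2 in the fit of 12 libraries. The call on IDI1 was lost in 2 of the 12 fits that left out 1 library and that on MVD in 4. Both were lost in the fit of the 12 libraries alone.

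Many genes of fatty acid use and storage rose in wild type or fell in TNRC6AB-/- cells. Of 22 tested, 11 rose and 0 fell in wild type (all genes, 16.4% and 8.41%) and 10 fell and 0 rose in TNRC6AB-/- cells (all genes, 10.4% and 9.74%). In the interaction 9 were lower (40.9%, beside 6.5% of all genes) and 0 higher, with a median of -0.58. ANGPTL4, a secreted inhibitor of lipoprotein lipase, was at 3.30, 4.08 and 14.7 CPM in wild type and 22.8, 22.1 and 16.4 CPM with siGL2, and at 7.82, 8.07 and 13.5 CPM and 3.81, 3.75 and 3.91 CPM in TNRC6AB-/- cells. The difference between these responses was -2.82 (SE 0.53, adjusted p = 0.00191). Both responses were without overlap, wild type 3 being the nearest to the siGL2 libraries. PDK4, the kinase that shuts off pyruvate dehydrogenase in fasting, rose from 4.18, 2.54 and 4.38 CPM to 6.74, 6.12 and 6.01 CPM in wild type and fell from 6.49, 6.36 and 7.72 CPM to 2.36, 2.46 and 1.94 CPM in TNRC6AB-/- cells. An interaction of -2.36 (SE 0.28, adjusted p = 2.41e-05) was measured. CPT1A, which takes fatty acids into mitochondria, was lower, at -1.11 (SE 0.18, adjusted p = 0.000478), and ABCA1, which exports cholesterol, at -1.33 (SE 0.18, adjusted p = 8.28e-05). The count of 9 was 4 without TNRC6AB-/- 2, 10 without the 4 libraries and 8 with the covariate.

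Lysosomal genes, which break down and recycle what cells take up, were lower in part. Of 32 tested, 10 were lower (31.25%, beside 6.5% of all genes) and 0 higher. In wild type 13 rose (all genes, 16.4%) and in TNRC6AB-/- cells 9 fell (all genes, 10.4%), with medians of 0.30 and -0.22. The cathepsin CTSD went from 40.2, 33.7 and 44.3 CPM to 52.0, 53.7 and 42.7 CPM in wild type and from 83.0, 98.8 and 110.0 CPM to 72.1, 65.1 and 57.5 CPM in TNRC6AB-/- cells. The interaction was -0.91 (SE 0.17, adjusted p = 0.00183). CTSA, a lysosomal carboxypeptidase, was lower, at -1.02 (SE 0.19, adjusted p = 0.0016), GUSB, a glucuronidase, at -0.83 (SE 0.14, adjusted p = 0.000906) and ATP6V1H, a subunit of the proton pump, at -0.75 (SE 0.15, adjusted p = 0.00402). The count of 10 was 4 without TNRC6AB-/- 2, 6 without TNRC6AB-/- siGL2 3 and 14 without the 4 libraries.

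Hypoxia and glycolysis genes rose with siGL2 in wild type, 17 of 34, and 3 rose and 2 fell in TNRC6AB-/- cells, with medians of 0.62 and -0.034. By the same test 16.4% of all genes rose in wild type, and 9.74% rose and 10.4% fell in TNRC6AB-/- cells. The interaction passed for 3 members, all lower (8.82%, near the 6.5% of all genes), with a median of -0.66 that was -1.13 without wild type 3, -0.41 without wild type 2 and -0.43 with the covariate. They were ALDOC, a brain-type aldolase, at -2.37 (SE 0.61, adjusted p = 0.0163), PFKFB4, which sets the activator of phosphofructokinase, at -1.81 (SE 0.50, adjusted p = 0.0247), and PKM, pyruvate kinase, at -0.86 (SE 0.21, adjusted p = 0.0112). ALDOC had 21.2, 14.0 and 86.7 CPM in wild type without and 89.6, 85.2 and 69.6 CPM with siGL2, so that wild type 3 was within the siGL2 range and libraries 1 and 2 were far below it. In TNRC6AB-/- cells it was at 24.1, 38.4 and 70.2 CPM and 19.0, 16.7 and 15.6 CPM. Per library the list stood at -0.28, -0.48 and 0.83 in wild type and 0.86, 0.87 and 0.54 with siGL2. In wild type 1 and 2, 32 and 33 of 34 members were below all siGL2 libraries, and in wild type 3 4. The share of all genes that did this was not counted, so a trait of the list cannot be told from a shift of the library. The count of 3 lower was 27 without wild type 3, 9 without TNRC6AB-/- 1, 7 without wild type siGL2 3 and 1 without TNRC6AB-/- 2 or 3, 10 by limma voom, 13 with no filter on low counts, 0 in the fit of 12 libraries, 4 without the 4 libraries and 3 with the covariate. The call on ALDOC was lost in 1 of the 12 fits that left out 1 library, on PFKFB4 in 7 and on PKM in 1.

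The other genes among the 10 most negative were DDIT4L, GRIK2, SYTL5 and ANXA10. DDIT4L, an inhibitor of mTOR signalling, rose in wild type from 6.53, 6.36 and 10.1 CPM to 16.9, 17.1 and 14.6 CPM and fell in TNRC6AB-/- cells from 34.4, 64.2 and 58.8 CPM to 9.38, 9.32 and 8.19 CPM. Its interaction was -3.63 (SE 0.31, adjusted p = 1.98e-07). GRIK2, a kainate receptor subunit, rose in wild type from 0.942, 1.22 and 1.15 CPM to 2.03, 2.02 and 3.29 CPM and fell from 43.4, 71.8 and 53.2 CPM to 13.2, 13.7 and 13.4 CPM in TNRC6AB-/- cells. This gave an interaction of -3.21 (SE 0.28, adjusted p = 1.98e-07). SYTL5, a vesicle transport protein, fell in TNRC6AB-/- cells from 2.84, 10.2 and 9.17 CPM to 1.01, 0.746 and 1.25 CPM and had an interaction of -4.10 (SE 0.51, adjusted p = 4.08e-05). ANXA10, an annexin of gastric epithelium, was a wild-type gene, at 9.52, 11.6 and 12.4 CPM and 25.6, 27.0 and 22.6 CPM with siGL2, and at 0.0630, 0.188 and 0.211 CPM and 0, 0.0497 and 0.0598 CPM in TNRC6AB-/- cells. Its interaction of -3.20 (SE 0.78, adjusted p = 0.0121) thus rests on few reads in TNRC6AB-/- cells, and the call was lost in 2 of the 12 fits that left out 1 library.

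Several of the genes with the most positive interactions rose with siGL2 in TNRC6AB-/- cells. DCLK1, a microtubule-associated kinase of tuft cells and of some gut tumour cells (ENSG00000133083.14, GRCh38 chromosome 13, 35768652 to 36131306, minus strand), stood at 1.29, 3.14 and 5.94 CPM in TNRC6AB-/- cells and 31.5, 29.2 and 27.5 CPM with siGL2, with no overlap. In wild-type cells it was at 1.35, 3.86 and 2.75 CPM and 1.46, 2.05 and 1.79 CPM. The response was 3.08 (SE 0.39, adjusted p = 1.03e-05) in TNRC6AB-/- cells and -0.59 (SE 0.43, adjusted p = 0.325) in wild type, and the interaction was 3.67 (SE 0.58, adjusted p = 0.000356). MGLL, which cleaves monoacylglycerols and the endocannabinoid 2-arachidonoylglycerol, rose from 1.10, 1.85 and 6.27 CPM to 27.1, 24.0 and 22.8 CPM in TNRC6AB-/- cells and was at 4.62, 12.8 and 5.04 CPM and 5.86, 6.09 and 4.59 CPM in wild type. The difference between these responses was 3.44 (SE 0.59, adjusted p = 0.000761). SUN3, a protein of the nuclear envelope known from testis, rose to 6.69, 5.89 and 5.17 CPM from 0.756, 0.456 and 1.63 CPM, with an interaction of 2.53 (SE 0.52, adjusted p = 0.00376). HKDC1, a hexokinase, had the most positive interaction of the 10 protein-coding genes chosen by the same limits, 4.63 (SE 1.13, adjusted p = 0.0122). It was at 4.52, 20.4 and 0.876 CPM in wild type and 1.29, 1.12 and 1.30 CPM with siGL2, against 0.441, 0.322 and 0.422 CPM and 1.48, 1.24 and 1.52 CPM in TNRC6AB-/- cells. Wild-type library 2 was by far the highest, and without it or the 4 libraries the call was lost.

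NRG1, HBEGF and EREG, ligands of the EGF receptor family, were higher, and genes of ERK and AP-1 signalling went in both directions. NRG1, neuregulin, rose in TNRC6AB-/- cells from 0.567, 0.456 and 0.302 CPM to 6.61, 6.41 and 5.56 CPM and was at 0.785, 0.514 and 1.87 CPM and 1.62, 1.94 and 1.39 CPM in wild type. An interaction of 3.17 (SE 0.45, adjusted p = 0.000175) was measured. EREG, epiregulin, an abundant transcript here, fell in wild type from 955, 1210 and 746 CPM to 687, 686 and 620.1 CPM and rose in TNRC6AB-/- cells from 324, 298 and 414 CPM to 727, 682 and 614 CPM, so that a difference between the backgrounds of -1.49 became one of 0.021. The interaction was 1.51 (SE 0.21, adjusted p = 0.000159). HBEGF fell in wild type from 14.8, 33.5 and 7.34 CPM to 6.60, 7.04 and 5.47 CPM and was higher with siGL2 in TNRC6AB-/- cells, 13.5, 12.8 and 12.0 against 7.97, 5.85 and 7.42 CPM, at an adjusted p of 0.0835. Its interaction was 2.39 (SE 0.49, adjusted p = 0.00376). DUSP5, a phosphatase induced by ERK that acts on ERK, fell from 264, 447 and 167 CPM to 103, 109 and 93.0 CPM in wild type and had 143, 80.4 and 120.4 CPM and 144, 142 and 122 CPM in TNRC6AB-/- cells. This gave an interaction of 1.77 (SE 0.33, adjusted p = 0.00197). RGS16, which turns off G protein signals, was higher by 2.37 (SE 0.60, adjusted p = 0.0156), a call lost without wild type 2, and FOSL1, a subunit of AP-1 downstream of ERK, by 1.02 (SE 0.31, adjusted p = 0.044), a call lost in 8 of the 12 fits that left out 1 library. JUNB, another AP-1 subunit, moved the other way, from 93.9, 63.8 and 109 CPM to 40.2, 39.8 and 35.1 CPM in TNRC6AB-/- cells and from 96.6, 82.4 and 101 CPM to 102, 106 and 82.9 CPM in wild type. The difference between these responses was -1.27 (SE 0.20, adjusted p = 0.000356). Of the 27 immediate early genes 11 fell in the wild-type and 11 in the TNRC6AB-/- background, with medians of -0.71 and -0.53, beside 8.41% and 10.4% of all genes. In the interaction 2 were higher and 1 lower, beside 2.22% and 6.5% of all genes.

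**Figure D3:**
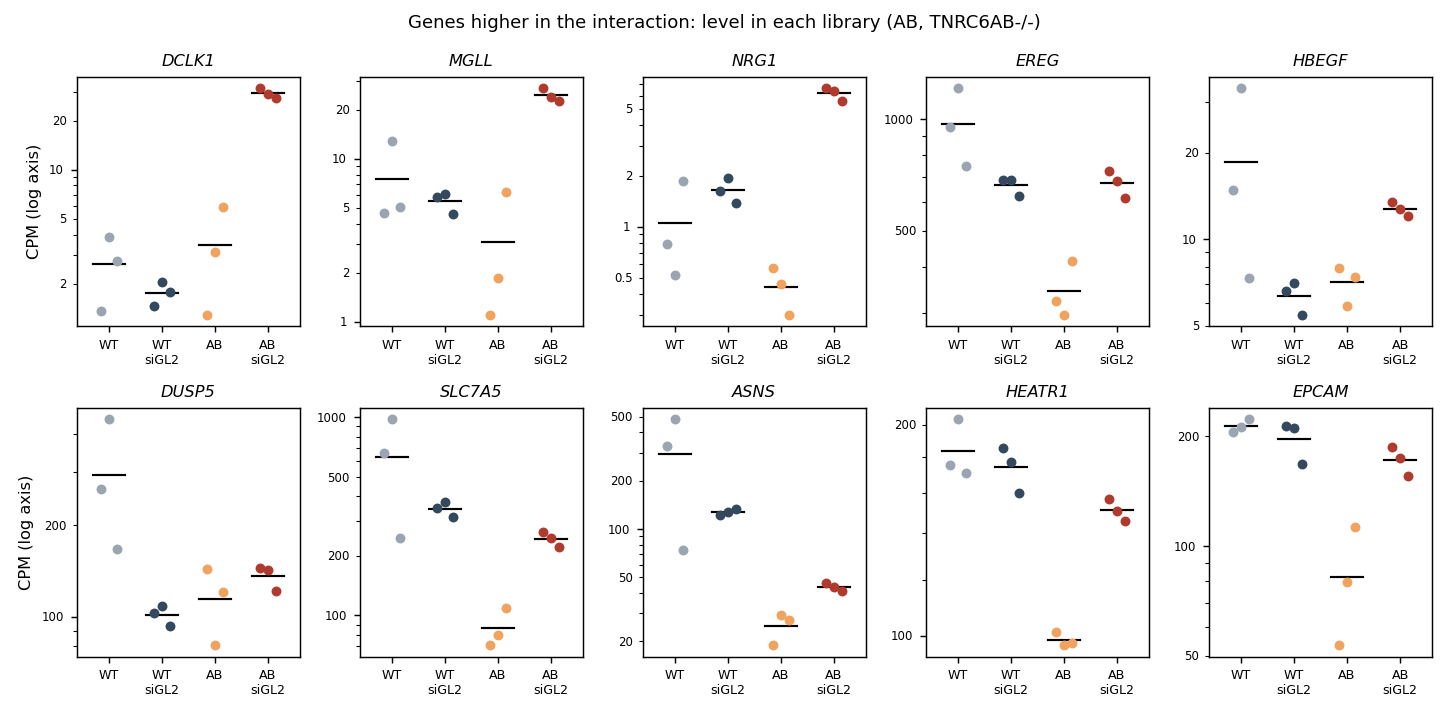
Level in CPM (logarithmic vertical axis, different for each gene) of 10 genes higher in the interaction in each of the 12 libraries, with bars at the means of 3; WT is wild type and AB TNRC6AB-/-. For DCLK1, MGLL and NRG1 the TNRC6AB-/- siGL2 libraries stand above all others, whereas for EREG, SLC7A5 and ASNS wild type falls or is spread widely and TNRC6AB-/- cells are higher with siGL2.

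Some genes fell in wild type and rose in TNRC6AB-/- cells, each past the threshold. NABP1, a subunit of a single-stranded DNA binding complex, fell from 96.1, 149 and 83.1 CPM to 56.5, 55.5 and 70.1 CPM in wild type and rose from 51.5, 41.8 and 48.9 CPM to 79.2, 79.6 and 89.6 CPM in TNRC6AB-/- cells. An interaction of 1.65 (SE 0.21, adjusted p = 5.57e-05) was measured. AKAP5, an anchor for protein kinase A, started from like levels, 3.39, 3.60 and 3.71 CPM in wild type and 4.10, 3.06 and 3.23 CPM in TNRC6AB-/- cells, and ended at 1.95, 2.44 and 2.24 CPM and 5.52, 5.67 and 6.19 CPM with siGL2. The interaction was 1.43 (SE 0.22, adjusted p = 0.00034). B3GALT5, a galactosyltransferase of gut glycans, had an interaction of 2.61 (SE 0.48, adjusted p = 0.00144), PLAC8, a small cysteine-rich protein, of 1.92 (SE 0.29, adjusted p = 0.00029) and HRK, a BH3-only cell death protein, of 1.89 (SE 0.43, adjusted p = 0.00832). Among the 10 most positive, VGF, a neuropeptide precursor, was higher by 2.43 (SE 0.60, adjusted p = 0.0143), and ATP2C2, a calcium pump of the secretory pathway, by 2.56 (SE 0.68, adjusted p = 0.0195). The calls on HRK and VGF were lost without the 4 libraries, and that on ATP2C2 was lost in 3 of the 12 fits that left out 1 library.

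Genes of the amino acid response, which the factor ATF4 turns on when amino acids are short, had lower medians with siGL2 in wild type and not in TNRC6AB-/- cells. Of 29 tested 7 fell and 0 rose in wild type, with a median of -0.70, and 2 rose and 0 fell in TNRC6AB-/- cells, with a median of 0.12. Over all genes 8.41% fell and 16.4% rose in wild type, and 9.74% rose and 10.4% fell in TNRC6AB-/- cells. In the interaction 3 were higher (10.3%, beside 2.22% of all genes) and 0 lower, with a median of 0.82. SLC7A5, the large neutral amino acid transporter LAT1, had 658, 978 and 247 CPM in wild type without and 348, 373 and 315 CPM with siGL2, where wild type 3 was below the siGL2 libraries and the other two above. In TNRC6AB-/- cells it rose without overlap from 70.6, 79.5 and 109.7 CPM to 262, 245 and 222 CPM, and the interaction was 2.35 (SE 0.46, adjusted p = 0.00292). ASNS, asparagine synthetase, stood at 327, 483 and 74.6 CPM and 123, 127 and 134 CPM in wild type and at 18.9, 29.2 and 27.2 CPM and 46.3, 43.7 and 41.3 CPM in TNRC6AB-/- cells, with an interaction of 2.01 (SE 0.56, adjusted p = 0.0255), and SLC7A1, the cationic amino acid transporter, was higher by 1.22 (SE 0.37, adjusted p = 0.0387).

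The wild-type libraries differed widely on this list. Its median per library was 0.21, 0.82 and -0.91 in wild type 1, 2 and 3, -0.49, -0.46 and -0.57 with siGL2, -1.32, -1.14 and -1.14 in TNRC6AB-/- cells and -0.89, -0.92 and -1.05 with siGL2, so that wild type 3 lay below its siGL2 libraries and wild type 2 far above. The count of 3 higher was 17 without wild type 3, 1 without wild type 1 or 2, TNRC6AB-/- siGL2 2 or wild type siGL2 1 or 2, 1 without the 4 libraries and 13 with the covariate. DESeq2 gave 7 and the fit with no filter on low counts 13. Leaving out wild type 2 took the median of the list to 0.41 and leaving out the 4 libraries to 0.51. The call on SLC7A5 held in all 12 fits that left out 1 library, while that on ASNS was lost in 5 and that on SLC7A1 in 11. The core of the element that ATF4 binds with C/EBP factors, TGATGNAA on either strand, lies in 1003 of 27305 RefSeq promoters (3.67%) and in 4 of the 24 members with a promoter in the table, ASNS, CHAC1, SLC3A2 and SLC7A1. The windows of the 2 members that were higher are shown with the core in capitals.
ASNS promoter, chr7:97872443-97872502, minus strand: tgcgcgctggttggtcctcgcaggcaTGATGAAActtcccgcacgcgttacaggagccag
SLC7A1 promoter, chr13:29595648-29595707, minus strand: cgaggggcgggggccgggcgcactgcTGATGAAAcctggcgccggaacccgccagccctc

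**Figure D4:**
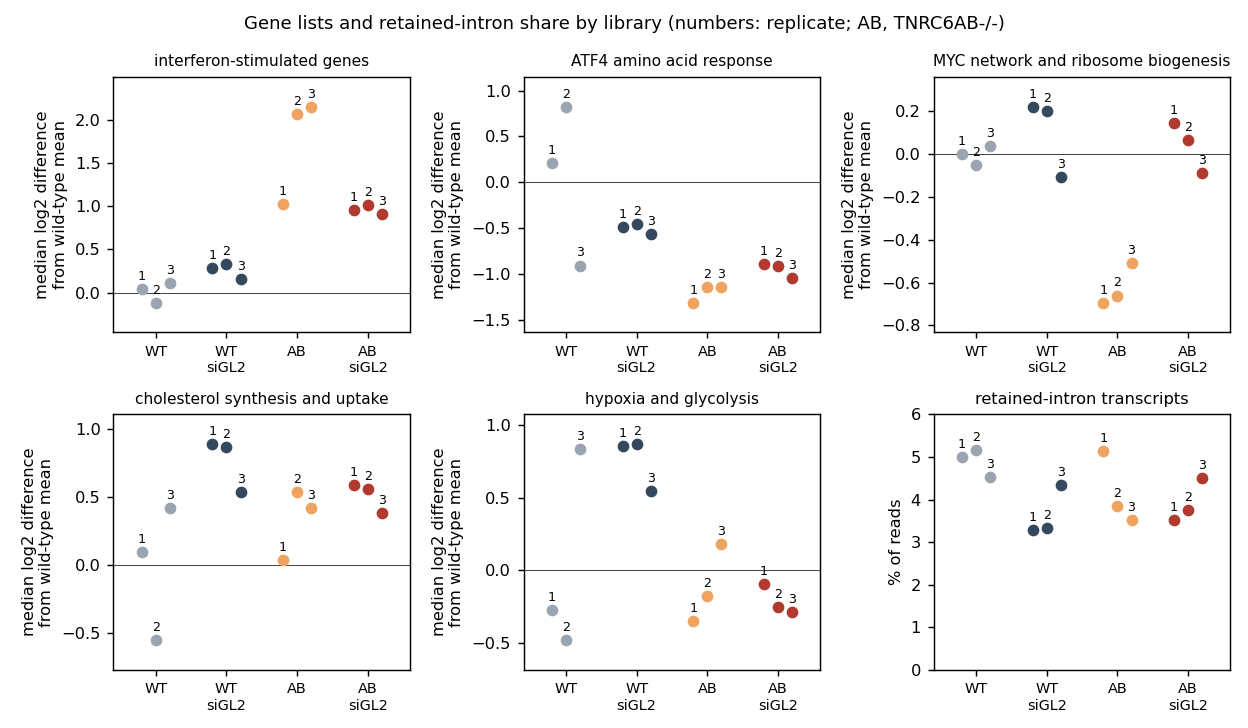
For 5 gene lists, the median over the members of the log2 difference of each library from the mean of the 3 wild-type libraries, and, in the last panel, the percentage of reads on retained-intron transcripts; each point is 1 library with its replicate number, WT is wild type and AB TNRC6AB-/-. TNRC6AB-/- 1 sits with the siGL2 libraries for interferon-stimulated genes, and wild type 3 sits with or beyond them for the ATF4 and hypoxia lists.

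Genes that build ribosomes rose with siGL2 in TNRC6AB-/- cells. Of 39 members of the MYC network and ribosome biogenesis 28 rose and 2 fell there and 7 rose and 1 fell in wild type, with medians of 0.58 and 0.11. Of all genes 9.74% rose and 10.4% fell in TNRC6AB-/- cells, and 16.4% rose and 8.41% fell in wild type. In the interaction 11 were higher and 1 lower (28.2% and 2.56%, beside 2.22% and 6.5% of all genes), with a median of 0.50. The median difference of TNRC6AB-/- from wild-type cells was -0.68 without transfection and -0.18 with siGL2. HEATR1, which is needed for transcription and processing of ribosomal RNA, had 101, 96.9 and 97.8 CPM in TNRC6AB-/- cells and 157, 151 and 146 CPM with siGL2, a rise without overlap, and 176, 204 and 171 CPM and 185, 177 and 160.0 CPM in wild type, where the libraries overlapped. Its interaction was 0.69 (SE 0.14, adjusted p = 0.00282). POLR1A, the largest subunit of RNA polymerase I, was higher by 0.66 (SE 0.14, adjusted p = 0.00424) and RRP12, an export factor for pre-ribosomes, by 1.06 (SE 0.22, adjusted p = 0.00444). MYC itself, singled out after its value was seen, had 42.1, 48.3 and 77.2 CPM and 132, 129 and 113 CPM in TNRC6AB-/- cells and 300.4, 228 and 314 CPM and 270.4, 278 and 212 CPM in wild type. This gave an interaction of 1.30 (SE 0.31, adjusted p = 0.011). The member that was lower was MXD4, which competes with MYC for its partner MAX, at -1.11 (SE 0.21, adjusted p = 0.00203). The count of 11 higher was 7 without wild type 3, TNRC6AB-/- siGL2 1 or wild type siGL2 3, 6 without TNRC6AB-/- siGL2 2, 5 without the 4 libraries and 27 with the covariate. Of 47 cytosolic ribosomal protein genes 0 were higher and 0 lower by edgeR, also at an unadjusted p below 0.05 and by DESeq2, with a median interaction of -0.064; with the covariate 16 were higher.

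Host genes of small nucleolar RNAs, whose introns hold the guides for ribosomal RNA modification, were higher in part. Of 18 tested 6 were higher (33.3%, beside 2.22% of all genes) and 0 lower, with a median of 0.68. In TNRC6AB-/- cells 9 rose, beside 9.74% of all genes. SNHG3 stood at 93.4, 79.3 and 75.9 CPM in TNRC6AB-/- cells and 121, 115 and 131 CPM with siGL2, and at 149, 140.4 and 129 CPM and 119.9, 121 and 113 CPM in wild type. The difference between these responses was 0.80 (SE 0.13, adjusted p = 0.000531). SNHG12, SNHG15 and SNHG16 were higher by 0.74, 0.86 and 0.81. The count of 6 was 2 with counts scaled by transcript length, 3 without wild type 1, 5 without the 4 libraries and 14 with the covariate.

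Epithelial genes gave 6 higher and 3 lower of 36 (16.7% and 8.33%, beside 2.22% and 6.5% of all genes), with a median interaction of 0.23. The median was 0.067 without wild type siGL2 3, 0.072 and 0.13 without TNRC6AB-/- siGL2 1 or 2, 0.44 without TNRC6AB-/- 3, 0.13 without the 4 libraries and 0.56 with the covariate. EPCAM, the epithelial adhesion molecule, was at 53.4, 79.6 and 113 CPM in TNRC6AB-/- libraries and rose to 187, 174 and 156 CPM with siGL2, near the 206, 212 and 223 CPM of wild type and 213, 210.2 and 167 CPM of wild type siGL2. An interaction of 1.19 (SE 0.28, adjusted p = 0.0107) was measured. LAD1, an anchoring filament protein, was higher by 1.45 (SE 0.37, adjusted p = 0.0168) and OVOL1, a repressor of mesenchymal genes, by 1.58 (SE 0.41, adjusted p = 0.0184). TJP3, a tight junction scaffold, went the other way and was lower, at -1.23 (SE 0.22, adjusted p = 0.00114). Of the untransfected TNRC6AB-/- libraries, library 3 was the nearest to siGL2 for EPCAM and LAD1. The calls on EPCAM, LAD1 and OVOL1 were lost without the 4 libraries: 0 of the list were higher without the 4 libraries, 19 with the covariate, 12 without TNRC6AB-/- 3, 2 without TNRC6AB-/- 2 or TNRC6AB-/- siGL2 2 and 3 without TNRC6AB-/- siGL2 1 or 3 or wild type siGL2 1 or 2.

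Lists of microRNA targets are read beside 2.22% higher and 6.5% lower of all genes. Of 26 let-7 targets 3 were higher and 0 lower, with a median of 0.18. HMGA2, the chromatin protein with many let-7 sites, had 413, 492 and 425 CPM in wild type without and 317, 319 and 317 CPM with siGL2, and 466, 486 and 484 CPM and 684, 682 and 622 CPM in TNRC6AB-/- cells. It fell in the first and rose in the second without overlap, with an interaction of 0.95 (SE 0.12, adjusted p = 4.77e-05). HMGA1 was higher by 0.89 (SE 0.28, adjusted p = 0.044), a call lost in 9 of the 12 fits that left out 1 library. Of 35 targets of the miR-17 and miR-200 families 1 was higher, EREG, and 6 were lower, with a median of -0.33. Of the CDK inhibitors and their partners CDKN1C was lower, at -1.46 (SE 0.32, adjusted p = 0.00568), CDKN1B at -0.63 (SE 0.18, adjusted p = 0.029) and RB1 at -0.65 (SE 0.15, adjusted p = 0.0101). All 3 rose with siGL2 in wild type and had estimates below 0 in TNRC6AB-/- cells, at adjusted p-values of 0.0997, 0.521 and 0.908. Those calls were lost in 8 of the 12 fits that left out 1 library for CDKN1B and in 1 for RB1.

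G2, S phase, heat shock and respiratory chain genes rose in both backgrounds in part, and none of their interactions was called by edgeR. Over all genes 16.4% rose in wild type and 9.74% in TNRC6AB-/- cells. Of 41 G2 and mitosis genes 39 rose in the wild-type and 38 in the TNRC6AB-/- background, with medians of 0.78 and 0.74, and 0 were higher or lower in the interaction by edgeR at an adjusted p below 0.05, 0 higher and 1 lower at an unadjusted p below 0.05 and 1 lower by DESeq2. Of 17 heat shock and chaperone genes 11 and 7 rose, with medians of 0.60 and 0.53 and no interaction called by edgeR, 1 higher and 1 lower at an unadjusted p below 0.05 and 1 higher by DESeq2. Of 40 S phase genes 21 rose in wild type and 7 in TNRC6AB-/- cells, and of 34 nuclear genes of the respiratory chain 25 and 8, with median interactions of -0.23 and -0.27 and 0 calls in either by edgeR and DESeq2. Wild type 2 was far below wild type 1 and 3. As log2 differences from the wild-type mean, S phase medians were 0.45, -0.95 and 0.47 in wild type and 0.92, 0.91 and 0.56 with siGL2. In wild type 1, 2 and 3 the G2 list stood at 0.28, -0.56 and 0.29 and the respiratory chain list at 0.12, -0.34 and 0.22. At an unadjusted p below 0.05 0 S phase genes were higher and 1 lower, and 1 and 7 respiratory chain genes. A call missed does not show that the backgrounds respond alike. Of 33 deadenylation and decapping genes 3 were lower (9.09%, near the 6.5% of all genes), among them TOB1, which brings the CCR4-NOT deadenylase to its targets, at -1.07 (SE 0.19, adjusted p = 0.00093), and CNOT6L, a catalytic subunit of that deadenylase, at -0.77 (SE 0.15, adjusted p = 0.0023). The counts of the other lists, at an adjusted p below 0.05 by edgeR, are read beside 2.22% higher and 6.5% lower of all genes. The unfolded protein response had 0 higher and 2 lower of 22, median -0.11. NRF2 targets and metallothioneins had 1 higher and 2 lower of 25, median -0.33. NF-kB targets and cytokines had 0 higher and 1 lower of 20, median -0.26, and YAP and TEAD targets 1 higher and 1 lower of 20, median 0.25. The BCL2 family had 1 higher and 3 lower of 17, median -0.10, and G1 cyclins and CDK inhibitors 0 higher and 3 lower of 16, median -0.21. Genes of intestinal differentiation had 0 higher and 1 lower of 16, median -0.16, and TGF-beta targets and receptors 0 higher and 5 lower of 21, median -0.46. RNAi core genes had 0 higher and 1 lower of 19, median -0.11, genes of the mitochondrial genome 0 higher and 0 lower of 13, median -0.083 and replication-dependent histone genes 0 higher and 0 lower of 31, median -0.42. At an unadjusted p below 0.05 the mitochondrial genome still had 0 and 0, and the histone genes 0 higher and 3 lower. Per library the histone median was 0.39, -0.58 and 0.20 in wild type and 0.85, 0.88 and 0.39 with siGL2. The p53 targets, 31 tested, had a median interaction of 0.0019 with 1 higher and 3 lower.

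**Figure D5:**
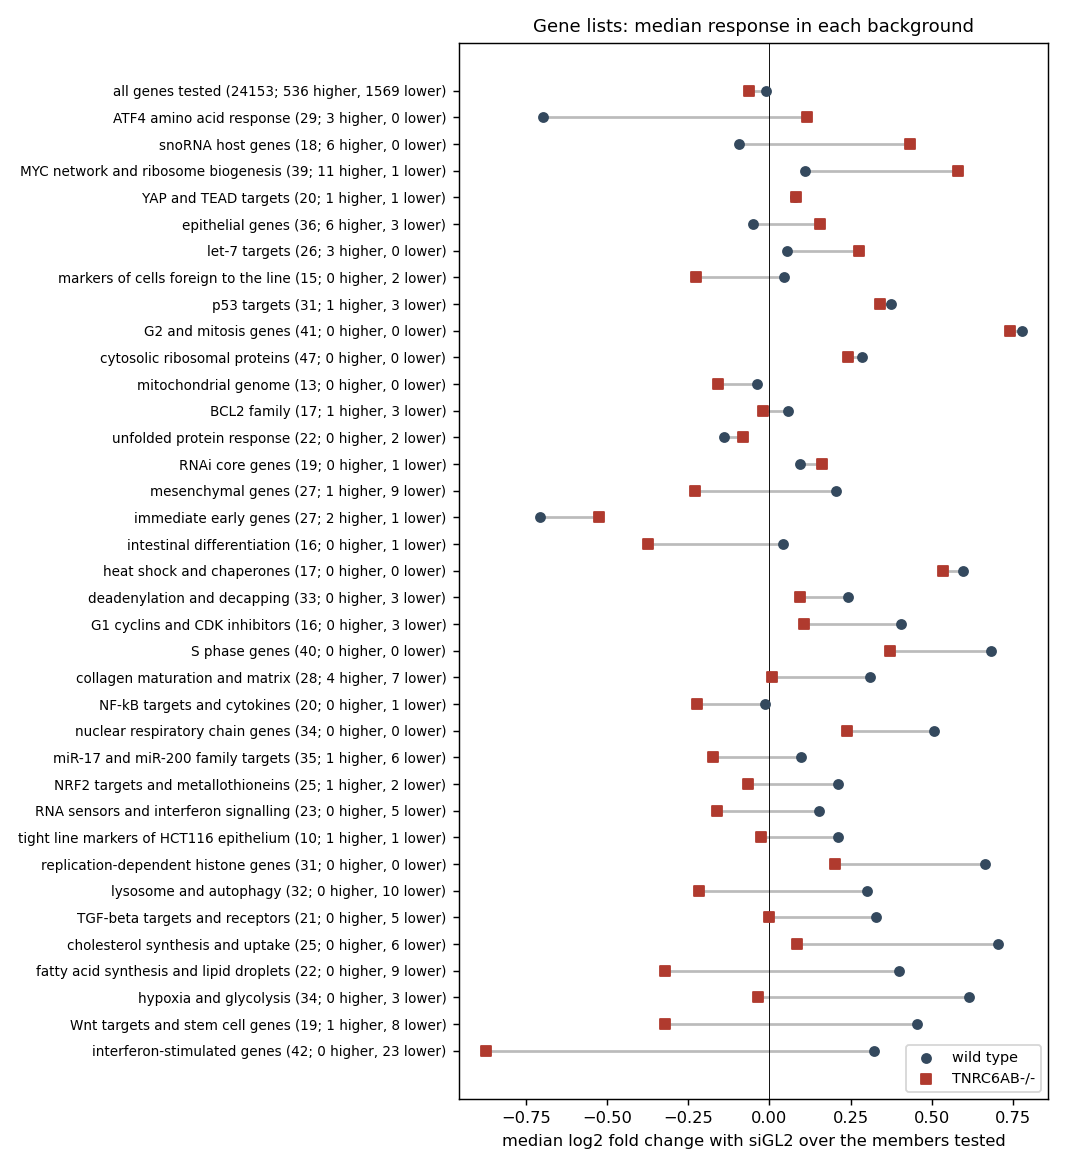
Median log2 fold change with siGL2 over the tested members of each gene list in wild type (circles) and TNRC6AB-/- cells (squares), ordered by the median interaction, with all genes tested at the top; labels give the members tested and how many were higher or lower in the interaction at an adjusted p below 0.05. The widest gaps are those of the interferon-stimulated genes, with a wild-type median of 0.32 and a TNRC6AB-/- median of -0.87, and of the ATF4 list, at -0.70 and 0.12.

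Among the TNRC6 and Argonaute genes the smallest adjusted p of the interaction was that of TNRC6B, at -0.36 (SE 0.13, adjusted p = 0.0957). TNRC6A (ENSG00000090905.18, GRCh38 chromosome 16, 24610209 to 24827632) had 111 ± 14.0 CPM in wild type but 51.0 ± 5.55 CPM in TNRC6AB-/- cells (mean ± SD, n = 3), and with siGL2 129 ± 8.87 CPM and 67.3 ± 2.82 CPM. TNRC6B (ENSG00000100354.20, chromosome 22, 40044817 to 40335808) stood at 192 ± 9.44 CPM and 93.1 ± 4.66 CPM, and with siGL2 at 219 ± 7.15 CPM and 82.5 ± 4.83 CPM. Both were lower in the knockout libraries with and without siGL2, and counts over the whole gene do not show whether a transcript is intact. TNRC6C, the remaining paralog, had a log2 response of 0.10 in the wild-type and 0.33 (SE 0.086, adjusted p = 0.00832) in the TNRC6AB-/- background, with an interaction of 0.24 (SE 0.12, adjusted p = 0.25). The interactions of AGO1 to AGO4 were -0.22, 0.37, 0.33 and -0.41, with adjusted p-values of 0.333, 0.189, 0.143 and 0.176.

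Repression through the seed needs a TNRC6 protein, so genes with a seed match to siGL2 were looked at as a group. The knockout cells still express TNRC6C, so this does not compare cells with and without TNRC6 proteins. Of 15063 tested genes with an annotated 3′ untranslated region 213 hold TACTTCG, the 7-base match of the antisense strand, and 36 hold CGCGTAC, that of the sense strand. With the antisense match the median response was 0.13 in the wild-type and 0.068 in the TNRC6AB-/- background, against 0.15 and 0.01 without. The median interaction was -0.078 with the match and -0.12 without, and 3.76% of the genes with it were higher against 2.57% of those without, and 8.92% against 9.22% lower. With the sense match the median response was 0.19 in the wild-type and -0.068 in the TNRC6AB-/- background, with 0 of 36 genes higher and 4 lower (11.1%), against 2.59% higher and 9.21% lower of those without. The 2 groups differ in the length of the untranslated region, with medians of 3095 bases with the antisense match and 1328 bases without, and the median interaction was -0.15, -0.16, -0.12, -0.092 and -0.055 in 5 bins of these regions from the shortest to the longest.

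Of the genes called higher 324 were protein-coding and of those called lower 1140, and the rest were noncoding RNAs and pseudogenes. CASC19, a long RNA upstream of MYC, fell in wild type from 105, 117 and 58.4 CPM to 30.2, 29.2 and 43.4 CPM and was at 9.36, 10.7 and 13.4 CPM and 14.4, 16 and 16.1 CPM in TNRC6AB-/- cells. The interaction was 1.92 (SE 0.28, adjusted p = 0.000234). LINC01405 was higher by 2.33 (SE 0.52, adjusted p = 0.00691) and AC108174.1, an intergenic RNA, by 1.89 (SE 0.38, adjusted p = 0.00304). Of small structured RNAs, 35 of 205 small nucleolar RNAs (17.1%) and 16 of 139 small nuclear RNAs (11.5%) were called lower, beside 5.44% of all genes. RNU1-1, a copy of the U1 splicing RNA that shares its reads with near-identical copies, had 181, 219.8 and 404 CPM in wild type without and 426, 336 and 219 CPM with siGL2, and 299, 447 and 1051 CPM and 130.0, 122 and 96.5 CPM in TNRC6AB-/- cells. Its interaction was -2.65 (SE 0.57, adjusted p = 0.00548). RNU2-2P and RNU4-1, copies of U2 and U4, were lower, at -2.56 and -2.54, at adjusted p-values of 0.0224 and 0.0233, calls lost with the covariate and in 5 and 4 of the 12 fits that left out 1 library. SNORA17B was at 0 CPM in all wild-type and all TNRC6AB-/- siGL2 libraries, at 2.28, 0 and 0 CPM in wild type siGL2 and at 5.23, 5.68 and 22.7 CPM in TNRC6AB-/- cells, so no fold is given. TNRC6AB-/- 3 was the highest library for all of RNU1-1, RNU2-2P, RNU4-1 and SNORA17B. The mean fragment was longer in the siGL2 libraries of both backgrounds, as given above, and its part in the values of such short RNAs was not tested.

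Both backgrounds were also transfected with siTNRC6C, a duplex against TNRC6C, in 3 libraries each. The matching difference, TNRC6AB-/- siTNRC6C minus TNRC6AB-/- against wild type siTNRC6C minus wild type, shares the untransfected libraries with the siGL2 interaction, so the values are given side by side only. For interferon-stimulated genes the median was -1.59 with siTNRC6C and -1.18 with siGL2, and for the ATF4 list 0.85 and 0.82. For MYC and ribosome biogenesis genes the medians were -0.20 and 0.50, for S phase genes -0.90 and -0.23. IFI6 had -3.08 with siTNRC6C beside -3.24 with siGL2, COL3A1 -5.32 beside -5.23, DCLK1 4.48 beside 3.67, and NRG1 4.14 beside 3.17. Other named genes differed between the duplexes. ABCA1 had 0.20 with siTNRC6C beside -1.33 with siGL2, CDKN1C -0.23 beside -1.46 and CDKN1B -0.058 beside -0.63.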

How the data were processed

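RNA was sequenced in 24 HCT116 libraries, 3 for each of 8 groups, and sample groups and replicate numbers were taken from the sample labels. The deposited files hold 1 estimated count per transcript and library (Salmon 0.11.0, hg38, per the labels), which the authors left unscaled, with the deposited TPM that Salmon scaled by effective transcript length, used here only for an alternative. STAR 2.5.3a and DESeq2 are also named in the submitters' processing notes, without a role, and the annotation release is not given in the sources used here. The labels name Trizol for RNA extraction, and the methods of the study another kit.

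Estimated counts were summed to genes and rounded. Genes were kept by edgeR's filterByExpr, libraries were scaled by TMM, and edgeR (4.0.16, R 4.3.3) quasi-likelihood tests were made in 1 fit of all 24 libraries with a mean per group and 16 residual degrees of freedom. The Benjamini-Hochberg adjustment covered all 24153 genes tested. A call needed an adjusted p below 0.05 and a log2 value beyond 0.6; counts of list members and "rose" or "fell" of a single gene needed the adjusted p only. The test was checked on simulated counts, with 100 genes changed by a log2 of 1 and 100 by 2. Where the groups were given unequal spreads, as the groups compared here have, 0.0877% of unchanged genes were called. These were 11% of its calls, above the nominal level. With equal spreads the values were 0.025% and 3.5%. Of genes changed by a log2 of 1, 70% were recovered with unequal and 65% with equal spreads. The share of wrong calls depends on how many genes were changed, so it does not carry over to the calls reported here. The fit pools the spread over all 8 groups. The biological coefficient of variation was smallest in the siTNRC6C groups, 0.0319 in wild type and 0.0336 in TNRC6AB-/- cells. CPM are TMM-scaled. Depth was 28822976 to 42689320 reads in the 12 libraries compared.

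Genes named in the text were those with the most negative and most positive interactions among called genes with at least 5 CPM in a group and responses without overlap (10 protein-coding genes and up to 4 others each way), up to 6 that were called in opposite directions in the backgrounds, from each list up to 4 whose adjusted p was smallest, and the TNRC6 and Argonaute genes; others are said to be singled out or named after their values were seen. The members, the 36 gene lists and the tests were chosen with earlier results of these data known. Alternatives were DESeq2 (1.42.0), RLE size factors, no filter on low counts, the 12 libraries alone, limma (3.58.1) voom with a weight per group, counts scaled from TPM and transcript length, sums without retained-intron transcripts, scaling without mitochondrial and histone genes, the replicate number as a block, each of 12 libraries left out, 4 libraries left out, and the retained-intron share as a covariate. Sequences are from the study's list of duplexes and from RefSeq (GRCh38.p14). Results for some genes are not reported here.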

Additional observations from a re-analysis of the deposited data

Results flagged for a closer look

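The response to siGL2 differed between the backgrounds by the test of the difference itself, the interaction term, for 461 genes called higher and 1314 called lower. The interactions of 92 genes named in the text that passed an adjusted p of 0.05 are given here as TNRC6AB-/- minus wild type on the log2 scale. SNORA17B also passed but was at 0 in most libraries, so no value is given.

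Interferon and RNA sensor genes were IFI6 at -3.24, BST2 at -3.18, IFI35 at -1.86, IRF7 at -1.61, STAT2 at -0.72, EIF2AK2 at -0.88 and DHX58 at -1.50. Matrix genes were COL3A1 at -5.23, HAS2 at -4.46, TIMP3 at -3.28, SPARC at -2.32, P3H1 at -0.90, COL12A1 at -0.89, LAMA3 at 1.22 and LAMB3 at 1.92. Mesenchymal genes were VIM at -1.44, ZEB1 at -1.44 and TGFBI at 2.33. Of markers of other cells there was RGS5 at -2.07. Wnt targets and stem cell genes were SP5 at -2.19, TNFRSF19 at -2.13, MSX2 at -2.06, DKK1 at -1.81, AXIN2 at -1.53, NOTUM at -1.40 and PROM1 at 1.26. Genes of lipid metabolism were ANGPTL4 at -2.82, PDK4 at -2.36, ABCA1 at -1.33, CPT1A at -1.11, TM7SF2 at -1.06, IDI1 at -1.30 and MVD at -0.88. Lysosomal genes were CTSA at -1.02, CTSD at -0.91, GUSB at -0.83 and ATP6V1H at -0.75. Glycolytic genes were ALDOC at -2.37, PFKFB4 at -1.81 and PKM at -0.86. Cell cycle inhibitors were CDKN1C at -1.46, CDKN1B at -0.63 and RB1 at -0.65. Deadenylation genes were TOB1 at -1.07 and CNOT6L at -0.77. Ligands of the EGF receptor family were NRG1 at 3.17, HBEGF at 2.39 and EREG at 1.51. Genes of ERK, AP-1 and G protein signalling were RGS16 at 2.37, DUSP5 at 1.77, FOSL1 at 1.02 and JUNB at -1.27. Amino acid response genes were SLC7A5 at 2.35, ASNS at 2.01 and SLC7A1 at 1.22. MYC and genes of its network or of ribosome biogenesis were MXD4 at -1.11, HEATR1 at 0.69, POLR1A at 0.66, RRP12 at 1.06 and MYC at 1.30. Host genes of small nucleolar RNAs were SNHG3 at 0.80, SNHG12 at 0.74, SNHG15 at 0.86 and SNHG16 at 0.81. Epithelial genes were EPCAM at 1.19, LAD1 at 1.45, OVOL1 at 1.58, TJP3 at -1.23 and ELF3 at -0.89. Targets of let-7 were HMGA1 at 0.89 and HMGA2 at 0.95. Noncoding RNAs were CASC19 at 1.92, LINC01405 at 2.33, AC108174.1 at 1.89, RNU1-1 at -2.65, RNU2-2P at -2.56 and RNU4-1 at -2.54. The remaining genes were SYTL5 at -4.10, DDIT4L at -3.63, GRIK2 at -3.21, ANXA10 at -3.20, HKDC1 at 4.63, DCLK1 at 3.67, MGLL at 3.44, B3GALT5 at 2.61, ATP2C2 at 2.56, SUN3 at 2.53, VGF at 2.43, AKAP5 at 1.43, HRK at 1.89, NABP1 at 1.65 and PLAC8 at 1.92.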

How the results depend on the processing

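The count of genes called higher, 461, was 752 with no filter on low counts, 906 with the retained-intron share as a covariate, an alternative chosen after seeing the data, and 296 to 732 when 1 library was left out. The count called lower, 1314, was 521 in the fit of 12 libraries alone and 586 to 1923 when 1 library was left out. In wild-type cells the 1532 genes that rose became 784 in the fit of 12 libraries, 869 with the covariate and 575 to 2497 when 1 library was left out, and the 1562 that fell became 787 with limma voom and 452 to 2273. In TNRC6AB-/- cells the counts stayed within 1.5 times, at 674 to 1215 that rose and 1193 to 1788 that fell when 1 library was left out. The fit of 12 libraries holds fewer samples and leaves out the siTNRC6C groups, which had the smallest spread. The cause of these shifts was not tested. In 3174 comparisons of a named gene with an alternative, the 12 changes of sign were in 5 genes that had not passed the test (MX1, MX2, OAS2, XAF1 and RPL8); in 327 of the 3174 a call was lost and in 19 one was gained. The fit of the 12 libraries alone lost 42 calls of the 138 genes compared, the most of any alternative. These included ALDOC, ASNS, ATP2C2, ATP6V1H, AXIN2, COL12A1, DHX58, EIF2AK2, ELF3, FOSL1, HMGA1 and IDI1. Also lost were LAMA3, LAMB3, MVD, OVOL1, PFKFB4, PKM, PROM1, RB1, SLC7A1, SNHG16, SP5 and STAT2. Medians of the gene lists were set against a spread of single libraries summed over the groups compared, which 1 of 828 comparisons exceeded. Leaving out 1 library can hardly move a median that far, so this does not show that the medians are stable. The ATF4 median went from 0.82 to 0.41 without wild type 2, and the hypoxia median from -0.66 to -1.13 without wild type 3.

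The replicate numbers were not taken as pairs, because the correlations of the deviations of same-numbered libraries from their group means ran from -0.495 to 0.706: they were highest between the siGL2 groups (0.589, 0.0581 and 0.706) and below 0 in others. With the replicate number as a block 418 genes were called higher and 1246 lower, both within 1.5 times of the counts without it, and of the named genes FOSL1 and SLC7A1 lost their calls. With the covariate the list medians were -0.21 for RNA sensors, -0.38 for fatty acid genes, -0.28 for lysosomal genes, -0.37 for Wnt targets and 0.77 for the MYC list. Each group has 3 libraries, the knockout is 1 line, and depth limits the values of genes below about 1 CPM.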
